A study of Mus musculus with 8 samples.

Results

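The genotype by vitamin D interaction asks, gene by gene, whether aortas responded differently to vitamin D (VitD in the labels) in the 2 genotypes. It is the log2 VitD-against-vehicle difference in libraries labelled Tet2KO minus the same difference in WT libraries. A negative value means that a gene was raised less, or lowered more, with VitD in the libraries labelled Tet2KO, and a positive value means the reverse. All 8 libraries of the series enter it, 2 in each of 4 groups, and 15019 of 48587 gene symbols were tested, those with at least 1 CPM (reads of a gene scaled to a common library size) in at least 2 libraries. Each library is bulk RNA of the mouse whole aortic tree. The WT groups are litter controls given vehicle (WT_vehicle) or VitD (WT_VitD). The other groups are labelled as a vascular smooth muscle cell (VSMC) specific Tet2 knockout and were given vehicle (Tet2KO_vehicle) or VitD (Tet2KO_VitD). The Cre line, the deleted exons, the VitD dose and duration, the age and the number of mice per library are not stated in the labels used here. Whether each library is a mouse of its own is not stated either, so p-values measure only how far these samples scatter, and that scatter may be technical.

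A high dose of vitamin D raises calcium and phosphate uptake and is widely used in rodents to induce mineral deposits in the arterial media. Under that load smooth muscle cells lose contractile proteins and take up matrix, bone and cartilage genes, while macrophages and other immune cells enter the wall. TET2 oxidises methylated cytosine in DNA, a step towards removing the mark, and in smooth muscle it is known as a regulator of the contractile state.

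Tet2 itself (chromosome 3, 133463679 to 133545139, minus strand; all gene positions are from GENCODE M21, build mm10) was checked first. It stood at 35.9 and 32.4 CPM in WT_vehicle, 18.3 and 20.02 in WT_VitD, 42.1 and 35.2 in Tet2KO_vehicle, and 26.6 and 37.6 in Tet2KO_VitD. The libraries labelled Tet2KO were thus not lower than the WT libraries of the same treatment, so gene-level counts of the whole aorta do not bear out the label. Whether the deleted part or the cell mixture plays into this was not tested, and Tet2KO is used below only as the name on the label. Tet2 fell with VitD in WT (log2 -0.83, adjusted p = 0.0292), and its interaction was 0.57 (SE 0.297, unadjusted p = 0.0901, adjusted p = 0.824), 0.75 without Tet2KO_VitD 1 and 0.29 without Tet2KO_VitD 2.

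Libraries held 15679274 to 22332149 counts. Their names carry numbers in 2 ranges that the labels do not explain. Both WT_VitD libraries and Tet2KO_VitD 1 lie in the higher range, and the other 5 libraries, Tet2KO_VitD 2 included, in the lower. The share of counts on ribosomal protein genes was 4.86% to 5.53% in the former and 2.11% to 2.58% in the latter. On the leading principal component, with 61.2% of the variance, vehicle libraries lay from -55.1 to -39.3, WT_VitD at 55.8 and 77.3, Tet2KO_VitD 1 at 59.8 and Tet2KO_VitD 2 at -5.43. In WT, number range and treatment cannot be told apart. The labelled Tet2KO response is the mean of 1 library that lay beside WT_VitD and 1 that lay between the vehicle and WT_VitD libraries. Values without a library are therefore given beside results that it moves by over 1.5 times, though not for every such library.

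No gene passed an adjusted p of 0.05 for the interaction in edgeR's quasi-likelihood test (0 of 15019, which is 0%). The smallest adjusted p was 0.610. At an unadjusted p under 0.05 stood 905 genes (6.03%), of which 489 were positive (3.26%) and 416 negative (2.77%). These shares are the background for every count below. DESeq2 called 13 genes, 5 positive (Slc24a4, Slc6a17, Serpina3k, Ank2, Kit) and 8 negative (Slfn8, Ccl8, Lars2, Wfdc17, Cd300a, Actn3, Cyp4f18, Spp1), with adjusted p from 2.67e-07 to 0.0498, and limma voom with quality weights called 0, with 768 at an unadjusted p under 0.05. The median SE of an interaction was 0.374 on the log2 scale. Across genes, which are not independent, interaction values had a rank correlation of 0.216 with transcript length. With that trend removed 0 genes were called and 851 stood at an unadjusted p under 0.05. Each interaction below is given as its log2 value with its SE and did not pass edgeR's adjusted threshold: over the 81 genes examined by name the adjusted p lay between 0.610 and 0.953.

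The responses that the interaction subtracts differed in how many genes passed. In WT, 3227 genes (21.5%) were called, 1689 higher and 1538 lower with VitD. In the libraries labelled Tet2KO, 32 genes (0.213%) were called, 29 higher and 3 lower, and all 32 were also called in WT. These counts turn on single libraries. Without Tet2KO_VitD 2 the libraries labelled Tet2KO had 1992 calls, against 19 without Tet2KO_VitD 1 and 0 to 21 without any one of the other 6. For WT the count was 133 without WT_VitD 2, 159 without WT_vehicle 1, 522 without WT_vehicle 2, 1015 without WT_VitD 1, 2090 and 2097 without a Tet2KO_vehicle library, and 4945 and 4934 without Tet2KO_VitD 1 and 2. These counts do not show that the responses differ, because that difference is the interaction itself. The 2 responses share no library, and their correlation across all genes was 0.688 (Pearson's r, genes are not independent replicates). Of the 1689 genes called higher in WT, 97.3% had the same sign in the libraries labelled Tet2KO, with a median log2 of 1.41 in WT and 0.73 there. For the 1538 called lower, 97.5% kept the sign, with medians of -1.23 and -0.51. The median was 0.94 in Tet2KO_VitD 1 and 0.43 in Tet2KO_VitD 2 for the higher set, and -0.85 and -0.23 for the lower set. Genes picked as called in WT are expected to be larger there than in any other comparison, so these medians are a description.

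**Figure D1:**
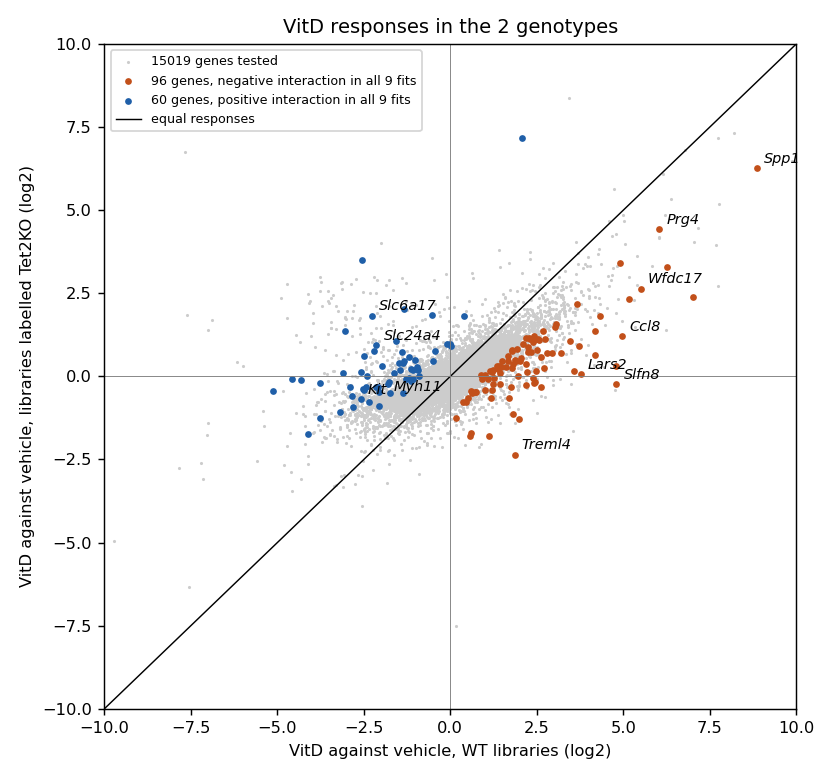
Each point is a gene, with its VitD-against-vehicle difference (log2) in WT libraries on the horizontal axis and in libraries labelled Tet2KO on the vertical axis; coloured points kept the sign of the interaction at an unadjusted p under 0.05 in the fit of all 8 libraries and in the 8 fits that each left out 1 library. The 96 negative genes lie below the line of equal responses, mostly to the right, and the 60 positive genes above it, mostly to the left.

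In 156 genes the interaction kept its sign and an unadjusted p under 0.05 in the fit of all 8 libraries and in each of the 8 fits that left out 1 library (60 positive, 96 negative). The 9 fits share libraries and are no independent checks. Directions in this paragraph are signs of fitted group differences, and single libraries overlapped in some genes. All 96 negative genes were higher with VitD in WT, 82 of them called, with a median log2 of 2.08 in WT and 0.32 in the libraries labelled Tet2KO. In 91 of the 96, Tet2KO_vehicle was already above WT_vehicle, by a median log2 of 0.85. In all 96 Tet2KO_VitD was below WT_VitD as a group, by a median of -0.75. Tnfrsf1b, 1 of these, overlapped, with 38.4 and 29.8 CPM in Tet2KO_VitD against 29.4 and 39.9 in WT_VitD. Of the 60 positive genes, 57 were lower with VitD in WT, and the medians were -1.78 in WT and 0.10 in the libraries labelled Tet2KO. Of these 60, 56 were lower in Tet2KO_vehicle than in WT_vehicle, by a median of -0.48, and 58 were higher in Tet2KO_VitD than in WT_VitD, by a median of 1.32. The interaction is also the genotype difference under VitD minus that under vehicle. The directions are thus partly fixed by how the genes were picked, and these counts are no separate finding.

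Many negative genes named below are known from leukocytes, and the letters upstream of their starts were read for the core of the interferon-stimulated response element, the motif bound by interferon-activated factors. RefSeq promoters (GRCm38.p6) were at hand for 71 of the 96 negative genes, 37 of the 60 positive genes and 10923 of the 15019 tested genes. The motif of GAAA, any 2 bases and GAAA, on either strand and within the 250 bases before a start, was present for 9 of the 71 negative genes (12.7%), 0 of the 37 positive genes and 357 of the 10923 tested genes (3.27%). The 9 are Slfn8, Oas1a, Saa3, Spp1, Gbp3, Ddx60, Cybb, Cytip and Tnfrsf1b. The motif GAGGAAGT, of the type bound by the myeloid factor PU.1, was present for 5 of the 71 negative genes and 1 of the 37 positive genes, against 2.98% of tested genes. The AP-1 motif TGANTCA was present for 7.04%, 5.41% and 5.84%. A match is a description of letters and not a bound site. The negative genes were picked from these same data, and all were higher with VitD in WT as a group. The share among all genes called higher in WT was not read. The motif share therefore cannot be tied to the interaction rather than to the WT response. Shown here, with the interferon motif in capitals (on the other strand it reads TTTC, any 2 bases and TTTC), are 4 negative genes that hold it, then Ccl8 and Slc24a4, which have large interaction values of opposite sign and no match. Each run is the 250 bases before the most upstream RefSeq start, 5' to 3' on the gene's strand.
Slfn8, chr11:83020811-83021060, minus strand: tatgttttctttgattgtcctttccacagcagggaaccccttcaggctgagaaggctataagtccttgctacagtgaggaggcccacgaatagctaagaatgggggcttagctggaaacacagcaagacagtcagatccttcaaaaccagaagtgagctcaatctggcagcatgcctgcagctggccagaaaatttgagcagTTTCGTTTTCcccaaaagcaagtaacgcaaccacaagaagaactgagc
Oas1a, chr5:120907526-120907775, minus strand: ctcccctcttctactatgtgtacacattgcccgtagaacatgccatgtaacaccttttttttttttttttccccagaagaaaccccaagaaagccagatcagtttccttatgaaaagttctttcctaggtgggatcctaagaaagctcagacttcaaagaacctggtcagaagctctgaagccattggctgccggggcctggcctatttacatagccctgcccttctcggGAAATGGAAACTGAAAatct
Saa3, chr7:46715677-46715926, minus strand: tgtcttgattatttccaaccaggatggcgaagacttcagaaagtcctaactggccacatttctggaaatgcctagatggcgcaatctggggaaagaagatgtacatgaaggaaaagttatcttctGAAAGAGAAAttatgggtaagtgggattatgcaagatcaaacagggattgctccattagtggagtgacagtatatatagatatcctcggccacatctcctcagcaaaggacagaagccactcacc
Spp1, chr5:104434861-104435110, plus strand: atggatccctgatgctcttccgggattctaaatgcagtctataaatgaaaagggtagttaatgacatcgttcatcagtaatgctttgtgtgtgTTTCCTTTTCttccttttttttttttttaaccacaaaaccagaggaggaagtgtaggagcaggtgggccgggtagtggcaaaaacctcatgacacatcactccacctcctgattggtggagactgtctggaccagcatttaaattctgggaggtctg
Ccl8, chr11:82114935-82115184, plus strand: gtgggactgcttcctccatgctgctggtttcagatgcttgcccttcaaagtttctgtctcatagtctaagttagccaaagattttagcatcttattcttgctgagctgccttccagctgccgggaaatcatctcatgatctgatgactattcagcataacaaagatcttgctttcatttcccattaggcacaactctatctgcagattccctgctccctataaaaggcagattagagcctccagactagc
Slc24a4, chr12:102128477-102128726, plus strand: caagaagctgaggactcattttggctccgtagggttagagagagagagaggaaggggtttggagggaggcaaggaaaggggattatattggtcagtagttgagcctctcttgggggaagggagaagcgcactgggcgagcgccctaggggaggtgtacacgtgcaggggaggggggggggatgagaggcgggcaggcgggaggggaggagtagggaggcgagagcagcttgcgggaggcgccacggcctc

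In Slfn8 the capitals start 48 bases before the start, in Oas1a 2 overlapping matches start 20 bases before it, in Saa3 the match starts 125 and in Spp1 157 bases before it. In Spp1 the match lies in a stretch of T and C, and so does that of Cytip, which is not shown.

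Slfn8, a Schlafen gene of leukocytes, had the smallest p of all genes tested (chromosome 11, 83002158 to 83020810, minus strand). It stood at 0.498 and 0.172 CPM in WT_vehicle (8 and 3 counts), 7.27 and 11.5 in WT_VitD, 6.20 and 7.38 in Tet2KO_vehicle, and 4.47 and 7.04 in Tet2KO_VitD. The WT_vehicle libraries were low. Tet2KO_vehicle overlapped both VitD groups, and the Tet2KO_VitD libraries lay just below those of WT_VitD. Slfn8 rose with VitD in WT (log2 4.80, adjusted p = 0.00304) and differed by -0.23 in the libraries labelled Tet2KO (adjusted p = 0.801), so that the interaction was -5.03 (SE 0.666, unadjusted p = 4.06e-05, adjusted p = 0.610). It ranged from -5.95 to -4.45 with each library left out. Of 7 Schlafen genes tested, 6 had negative values and 3 reached an unadjusted p under 0.05, Slfn8, Slfn1 (-1.75) and Slfn5 (-0.64). Slfn9, the closest neighbour in name, stood at -1.15 (SE 0.582). Reads shared between Schlafen copies could be split by the counting, so single values are uncertain. The Schlafen, Cd300, MHC, Ccl, ankyrin and Slc24a families were looked up after the values of their leading members were seen.

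Ccl8, a chemokine that draws monocytes, followed on chromosome 11 (82115185 to 82116799, plus strand). It stood at 1.68 and 1.89 CPM in WT_vehicle, 51.1 and 61.3 in WT_VitD, 17.9 and 7.61 in Tet2KO_vehicle, and 22.1 and 36.9 in Tet2KO_VitD. Both vehicle libraries labelled Tet2KO were above both WT_vehicle libraries, and both VitD libraries labelled Tet2KO were below both WT_VitD libraries. The gene rose in WT by a log2 of 4.97 (adjusted p = 0.0030) against 1.21 in the libraries labelled Tet2KO (adjusted p = 0.252), and the interaction was -3.76 (SE 0.585, unadjusted p = 0.000139, adjusted p = 0.698). Of 15 Ccl genes tested, 14 had negative interaction values, 6 of them at an unadjusted p under 0.05, and 10 were called higher with VitD in WT.

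Cd300a, an inhibitory receptor of myeloid cells (chromosome 11, 114890041 to 114904654, plus strand), repeated the pattern at a lower level. Its CPM was 2.18 and 2.57 in WT_vehicle, 11.8 and 13.3 in WT_VitD, 4.48 and 7.38 in Tet2KO_vehicle, and 5.77 and 5.77 in Tet2KO_VitD. The VitD libraries labelled Tet2KO lay between their own vehicle libraries. The interaction was -2.44 (SE 0.440, unadjusted p = 0.000397, adjusted p = 0.819), with -2.75 to -2.03 when each library was left out. Among 8 Cd300 genes tested, 7 were negative and 5 reached an unadjusted p under 0.05. Cd300lf, a relative, did not follow: it had 0.249 and 0.286 CPM in WT_vehicle, 5.82 and 9.28 in WT_VitD, 0.246 and 0.336 in Tet2KO_vehicle and 5.52 and 6.12 in Tet2KO_VitD, with an interaction of -0.50 (SE 0.669). Its vehicle libraries overlapped between genotypes, unlike those of Cd300a.

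**Figure D2:**
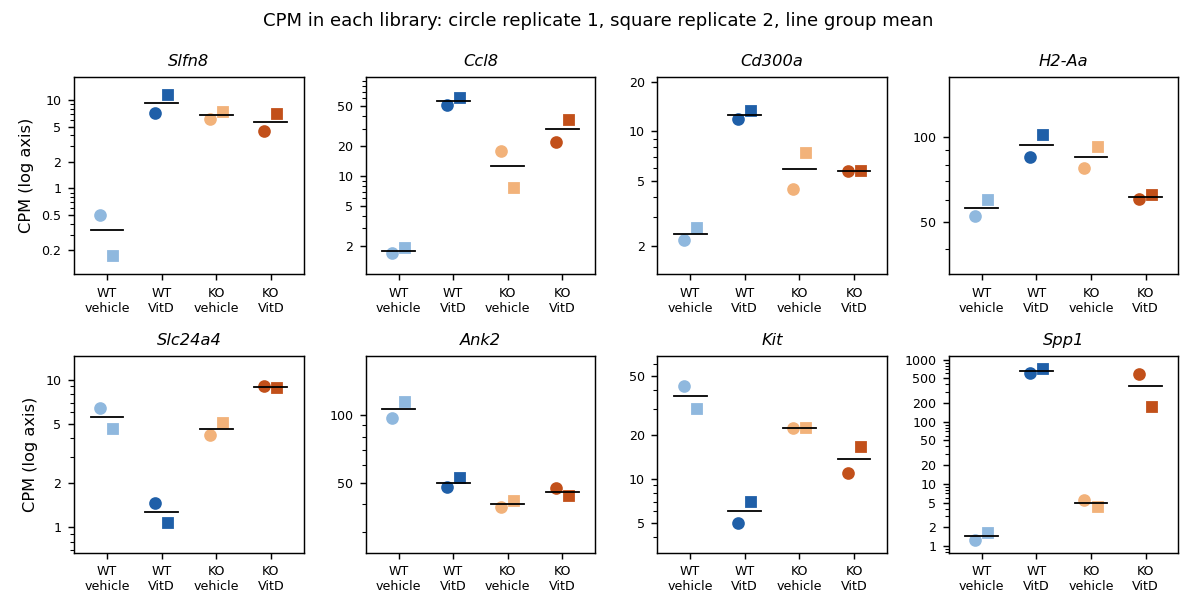
CPM on a log axis in each library for 8 genes, with a circle for replicate 1, a square for replicate 2 and a line at the group mean of 2 libraries; KO stands for the libraries labelled Tet2KO. By group mean, Slfn8, Ccl8 and Cd300a are lowest in WT vehicle and highest in WT VitD, Slc24a4 is lowest in WT VitD, Ank2 is highest in WT vehicle, and H2-Aa goes up in WT and down in the libraries labelled Tet2KO.

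For Cyp4f18 and Clec4e both groups labelled Tet2KO lay between WT_vehicle and WT_VitD by group mean, with VitD above vehicle in both genotypes. Cyp4f18, an enzyme of lipid mediator breakdown in neutrophils, stood at 1.06 and 1.14 CPM in WT_vehicle, 8.33 and 12.1 in WT_VitD, 3.31 and 3.75 in Tet2KO_vehicle, and 6.51 and 4.97 in Tet2KO_VitD. Its interaction was -2.51 (SE 0.470). Clec4e, a macrophage receptor for mycobacterial glycolipid and dead cells, stood at 0.498 and 0.286, 3.96 and 6.45, 2.46 and 1.85, and 3.91 and 4.22 CPM for these groups in turn, with an interaction of -2.80 (SE 0.630). Both rose in WT (adjusted p = 0.00304 and 0.00475) and had vehicle libraries labelled Tet2KO above those of WT.

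Wfdc17, a secreted protein of activated macrophages, had a larger share of its difference in 1 library. It stood at 3.17 and 2.46 CPM in WT_vehicle, 94.1 and 161 in WT_VitD, 7.61 and 10.8 in Tet2KO_vehicle, and 81.5 and 33.9 in Tet2KO_VitD, with an interaction of -2.86 (SE 0.624). Without Tet2KO_VitD 1 it was -3.67 and was called (adjusted p = 0.0464). Plek, a leukocyte and platelet kinase substrate, had -1.64 (SE 0.362), and Cotl1, an actin-binding protein of leukocytes, had -1.33 (SE 0.304). Both rose in WT with an adjusted p of 0.0030. Treml4, a receptor of myeloid cells, stood at 0.498 and 0.400 CPM in WT_vehicle, 1.12 and 2.15 in WT_VitD, 2.40 and 4.31 in Tet2KO_vehicle, and 0.434 and 0.836 in Tet2KO_VitD. Its VitD libraries were above vehicle in WT and below it in the libraries labelled Tet2KO, with an interaction of -4.22 (SE 0.846), on 7 to 77 counts per library.

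Of the genes of MHC class II, which present peptides to CD4 T cells, 4 also had responses of opposite direction. H2-Aa, the alpha chain (chromosome 17, 34282744 to 34287823, minus strand), stood at 52.4 and 60.1 CPM in WT_vehicle, 84.8 and 102 in WT_VitD, 77.6 and 92.5 in Tet2KO_vehicle, and 60.3 and 62.4 in Tet2KO_VitD. VitD libraries were above vehicle in WT and below vehicle in the libraries labelled Tet2KO, without overlap. H2-Aa rose in WT (log2 0.73, adjusted p = 0.0255) and differed by -0.47 in the libraries labelled Tet2KO (adjusted p = 0.311), and its interaction was -1.21 (SE 0.252). The beta chains H2-Eb1 and H2-Ab1 and the invariant chain Cd74, which escorts class II molecules, had interactions of -1.13 (SE 0.312), -1.04 (SE 0.329) and -1.16 (SE 0.339). Unlike H2-Aa, these genes passed in neither genotype. Their adjusted p was 0.0701, 0.0961 and 0.151 in WT, and 0.37, 0.421 and 0.307 in the libraries labelled Tet2KO.

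H2-Eb1 stood at 42.4 and 51.4 CPM in WT_vehicle, 66.2 and 79.4 in WT_VitD, 51.4 and 71.6 in Tet2KO_vehicle, and 38.6 and 48.4 in Tet2KO_VitD. Cd74 stood at 132 and 151, 174 and 229, 214 and 245, and 118 and 174 CPM in that order. H2-Ab1 kept its groups apart by little, with 63.8 CPM in the lower Tet2KO_vehicle library and 63.6 in the higher Tet2KO_VitD library. Of 9 class II genes tested, all 9 had negative values from -1.21 to -0.64, 4 reached an unadjusted p under 0.05, and the same 4 had opposite responses without overlap, where the share over all genes was 1.58% (238 of 15019). The class II transactivator Ciita stood at -0.93 (SE 0.657). For MHC class I, present on nearly all cells, 7 genes were looked up: H2-K1, H2-D1, B2m, Tap1, Tap2, Psmb8 and Psmb9. They ranged from -0.65 to 0.05, with 0 at an unadjusted p under 0.05. This set does not hold all class I genes. H2-Q6, outside it, had -1.14 (SE 0.304, unadjusted p = 0.00486), and H2-Q4 had -0.36 (SE 0.222). H2-Q6 stood at 24.65 and 25.05 CPM in WT_vehicle, 38.13 and 25.57 in WT_VitD, 38.74 and 44.3 in Tet2KO_vehicle, and 25.25 and 23.15 in Tet2KO_VitD.

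The lists of immune genes stood as follows. In the inflammation list, 16 of 18 tested members were called higher with VitD in WT and 4 in the libraries labelled Tet2KO. The median response was a log2 of 3.93 in WT and 2.17 in the libraries labelled Tet2KO. For the interaction, 0 of 18 were called and 10 reached an unadjusted p under 0.05, all negative. The list median was -1.73, and -0.96 without WT_VitD 2. The median interaction was 0.02 over all genes tested, -0.59 over the 1689 genes called higher in WT and 0.68 over the 1538 called lower. The WT response enters the interaction with a minus sign, so each list median here and below is to be read beside these values. Il1b, the inflammatory cytokine, stood at 0.809 and 0.400 CPM in WT_vehicle, 10.3 and 11.8 in WT_VitD, 3.56 and 1.40 in Tet2KO_vehicle, and 5.46 and 7.35 in Tet2KO_VitD, with an interaction of -2.81 (SE 0.701). Saa3, an acute-phase protein, stood at 0.374 and 1.26, 36.8 and 92.0, 4.54 and 1.73, and 34.5 and 27.1 CPM, with an interaction of -2.97 (SE 0.874). Its vehicle libraries labelled Tet2KO were above those of WT. Socs3, a brake on cytokine signalling, and Ccl2, a monocyte chemokine, rose in both genotypes. Socs3 had log2 values of 3.07 and 2.20 (adjusted p = 0.00082 and 0.00421), and Ccl2 had 4.57 and 3.01 (adjusted p = 0.00224 and 0.0248). Their interactions were -0.87 (SE 0.262) and -1.56 (SE 0.523).

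Macrophage markers had a median interaction of -0.87, with 14 of 15 members negative and 6 at an unadjusted p under 0.05. Summed over the list they stood at 562 and 533 CPM in WT_vehicle, 2222 and 2915 in WT_VitD, 736 and 899 in Tet2KO_vehicle, and 2571 and 1471 in Tet2KO_VitD. The sum was higher in both Tet2KO_vehicle libraries than in WT_vehicle, and Tet2KO_VitD 1 lay between the WT_VitD libraries. In bulk RNA, fewer cells of a type and less RNA per cell cannot be told apart. Mrc1, the mannose receptor, had -0.99 (SE 0.321), and Csf1r, the receptor of the macrophage growth factor, had -0.83 (SE 0.274). Neutrophil markers had a median of -2.05, with all 8 tested of 11 negative and 3 at an unadjusted p under 0.05, and -1.35 without Tet2KO_vehicle 1. Summed over the list they were at 10.5 and 4.46 CPM in WT_vehicle, 50.6 and 92.8 in WT_VitD, 15.5 and 10.01 in Tet2KO_vehicle, and 38.7 and 20.4 in Tet2KO_VitD. The part of these cell markers in the interaction of single leukocyte genes was not tested.

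Interferon-response genes were negative in 16 of 16 members, with a median of -0.84 and 5 at an unadjusted p under 0.05. In WT 13 were called higher and in the libraries labelled Tet2KO 0, with median responses of 1.66 and 0.98. The median over members of the difference between the vehicle groups was 0.70, higher in the libraries labelled Tet2KO. Oas1a, a sensor of double-stranded RNA, stood at 2.93 and 2.23 CPM in WT_vehicle, 13.9 and 16.3 in WT_VitD, 6.14 and 3.92 in Tet2KO_vehicle, and 11.2 and 10.03 in Tet2KO_VitD. Its interaction was -1.47 (SE 0.421), and that of Ifi44, another interferon-induced gene, was -1.92 (SE 0.702), and -2.90 without WT_vehicle 1. With each library left out the list median ranged from -1.05 to -0.55, the latter without Tet2KO_vehicle 1.

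**Figure D3:**
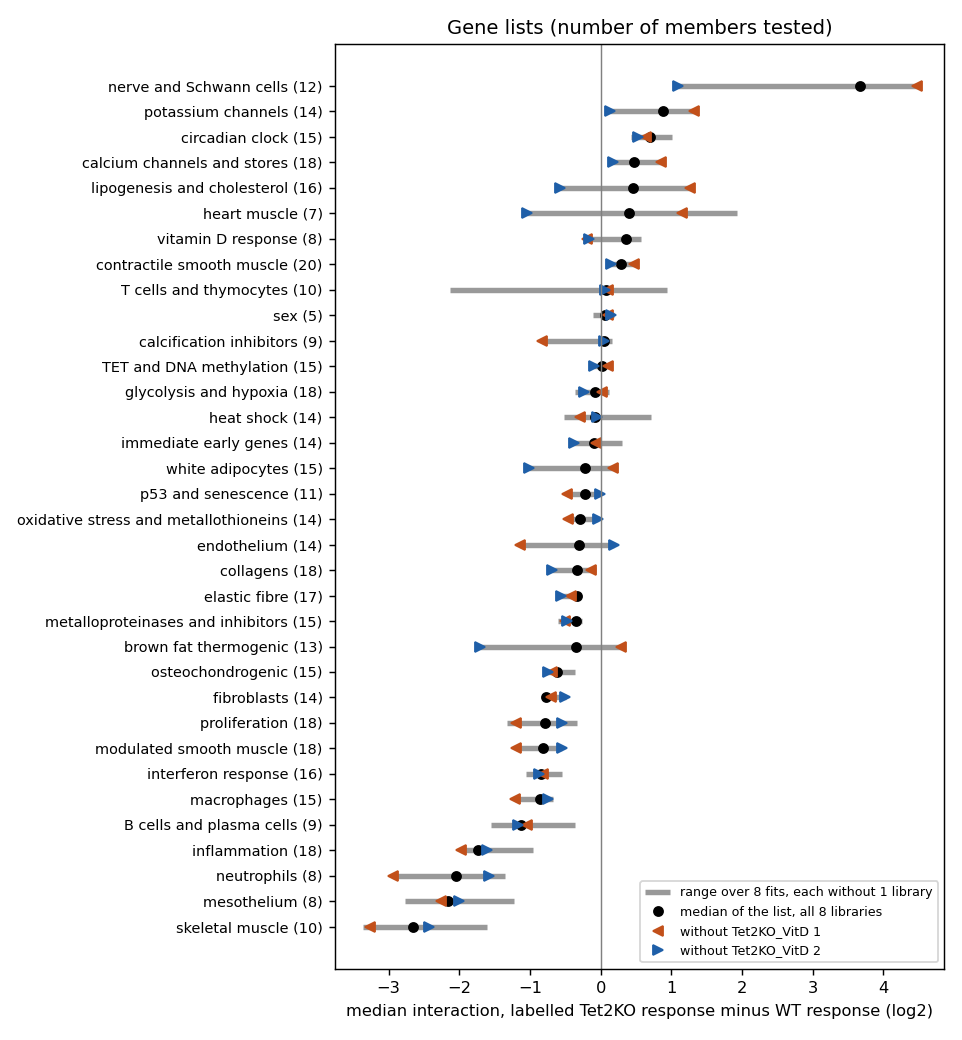
Median interaction (log2) of each gene list, with the number of members tested in brackets; dots are the fit of all 8 libraries, bars the range over 8 fits that each left out 1 library, and triangles the fits without each Tet2KO_VitD library. Inflammation, interferon response, macrophages and neutrophils stay below 0 throughout. So do B cells, proliferation, modulated smooth muscle, osteochondrogenic, fibroblasts, collagens, elastic fibre, metalloproteinases, skeletal muscle and mesothelium. Brown fat, white adipocytes, endothelium, lipogenesis and heart muscle change sign, as do calcification inhibitors, vitamin D response, and TET and DNA methylation. The p53, glycolysis, heat shock, immediate early gene, T cell and sex lists also cross 0.

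Positive values included genes of smooth muscle and of ion handling. Slc24a4, a sodium, potassium and calcium exchanger (chromosome 12, 102128733 to 102267091, plus strand), stood at 6.47 and 4.63 CPM in WT_vehicle, 1.45 and 1.07 in WT_VitD, 4.24 and 5.09 in Tet2KO_vehicle, and 9.06 and 8.76 in Tet2KO_VitD. The vehicle groups overlapped, WT_VitD was the lowest group and Tet2KO_VitD the highest. It fell in WT (log2 -2.13, adjusted p = 0.0094) and differed by 0.93 in the libraries labelled Tet2KO (adjusted p = 0.271). The interaction was 3.07 (SE 0.461, unadjusted p = 0.000107, adjusted p = 0.698) and stayed between 2.81 and 3.29 with each library left out. The 2 Tet2KO_VitD libraries, of different number ranges, lay close together on this gene.

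Its relative Slc24a3 stood at 0.53 (SE 0.439), and 6 sodium calcium exchangers and plasma membrane calcium pumps tested were positive, from 0.13 to 0.91, with 0 at an unadjusted p under 0.05. Ank2, the adaptor that anchors ion transporters in the membrane of muscle and nerve cells (chromosome 3, 126921612 to 127499350, minus strand), stood at 97.7 and 115 CPM in WT_vehicle, 47.6 and 52.2 in WT_VitD, 38.9 and 41.3 in Tet2KO_vehicle, and 47.2 and 43.4 in Tet2KO_VitD. Only WT_vehicle was high. Ank2 fell in WT (log2 -1.09, adjusted p = 0.00777), and its interaction of 1.27 (SE 0.232) went with a vehicle difference between genotypes of -1.41 (adjusted p = 0.159). The other ankyrins, Ank1 and Ank3, stood at 0.24 (SE 0.555) and 0.48 (SE 0.670).

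Kit, the receptor of stem cell factor, found on mast cells, progenitors and some smooth muscle (chromosome 5, 75574916 to 75656722, plus strand), stood at 42.8 and 29.8 CPM in WT_vehicle, 5.02 and 6.96 in WT_VitD, 22.3 and 22.0 in Tet2KO_vehicle, and 11.0 and 16.3 in Tet2KO_VitD. The libraries labelled Tet2KO lay between the WT groups under both treatments. Kit fell in WT (log2 -2.59, adjusted p = 0.00312) and differed by -0.69 in the libraries labelled Tet2KO (adjusted p = 0.330), with an interaction of 1.90 (SE 0.396). Gabre, a subunit of the GABA-A receptor, stood at 69.3 and 46.7, 18.8 and 22.3, 34.6 and 46.5, and 39.0 and 68.4 CPM in WT_vehicle, WT_VitD, Tet2KO_vehicle and Tet2KO_VitD. It fell in WT (adjusted p = 0.0175) and had an interaction of 1.90 (SE 0.433). The WT_VitD libraries were the lowest.

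Further positive genes with small p were mostly genes that fell in WT. Adamts14, a procollagen-processing protease, stood at 20.8 and 19.2 CPM in WT_vehicle, 9.12 and 6.39 in WT_VitD, 12.7 and 11.0 in Tet2KO_vehicle, and 11.9 and 19.3 in Tet2KO_VitD, with an interaction of 1.77 (SE 0.408). Slc25a27, a mitochondrial uncoupling protein, had 1.72 (SE 0.421), Plekhb1, a membrane-binding protein, 1.81 (SE 0.462), the deubiquitinase Usp42 1.12 (SE 0.288), and Rab3a, a vesicle GTPase, 1.25 (SE 0.329), with unadjusted p from 0.00291 to 0.00446. These 5 fell in WT, with adjusted p from 0.0093 to 0.0249. Arrdc2, an arrestin-domain protein, went down in WT (20.7 and 17.9 to 14.9 and 13.6 CPM) and up in the libraries labelled Tet2KO (14.1 and 15.4 to 24.8 and 25.6 CPM), without overlap, though neither response passed (adjusted p = 0.125 and 0.161). Its interaction was 1.21 (SE 0.268).

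Slc6a17, a neuronal amino acid transporter, and Serpina3k, a serine protease inhibitor, had large values that leaned on single libraries. Slc6a17 stood at 8.34 and 12.8 CPM in WT_vehicle, 1.98 and 2.38 in WT_VitD, 1.35 and 1.85 in Tet2KO_vehicle, and 2.54 and 8.71 in Tet2KO_VitD. Its interaction was 4.09 (SE 0.787), 4.67 and called without Tet2KO_VitD 1 (adjusted p = 0.0464), and 2.94 without Tet2KO_VitD 2. Serpina3k stood at 2.24 and 11.9, 1.32 and 1.07, 0.798 and 0.503, and 13.4 and 1.41 CPM, so that 1 library in each of 2 groups was high. Its interaction of 6.05 (SE 1.53) became 3.63 without Tet2KO_VitD 1, and reads of the Serpina3 family could be split between copies.

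The contractile smooth muscle list had 0 of 20 members at an unadjusted p under 0.05, although 18 of 20 values were positive. The median was 0.29, with 0.47 and 0.14 without Tet2KO_VitD 1 and 2, and 0.52 and 0.15 without WT_VitD 1 and 2. In WT 6 members were called lower and in the libraries labelled Tet2KO 0, with median responses of -0.52 and -0.19. Myh11, the smooth muscle myosin heavy chain, stood at 6490 and 7000 CPM in WT_vehicle, 2345 and 1406 in WT_VitD, 7280 and 6108 in Tet2KO_vehicle, and 2511 and 6333 in Tet2KO_VitD. Tet2KO_VitD 1 lay near WT_VitD and Tet2KO_VitD 2 among the vehicle libraries. The interaction of Myh11 was 1.25 (SE 0.601), 1.72 without Tet2KO_VitD 1 and 0.43 without Tet2KO_VitD 2. Acta2, smooth muscle actin, stood at 0.29 (SE 0.425), and from -0.040 without Tet2KO_VitD 2 to 0.565 without WT_VitD 1. Mylk, the kinase that starts contraction, had 0.98 (SE 0.433) and 0.53 without Tet2KO_VitD 2.

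Channels that set smooth muscle tone were positive with a wider range. In the potassium channel list 12 of 14 members were positive and 2 reached an unadjusted p under 0.05, and the median was 0.88, with 1.32 without Tet2KO_VitD 1 and 0.13 without Tet2KO_VitD 2. Kcnab1, a channel beta subunit, stood at 156 and 64.6 CPM in WT_vehicle, 27.8 and 13.97 in WT_VitD, 85.3 and 121 in Tet2KO_vehicle, and 58.9 and 90.1 in Tet2KO_VitD. Its interaction was 1.93 (SE 0.641), and 1.16 without WT_vehicle 1. Kcnma1, the calcium-activated potassium channel, had 1.18 (SE 0.403). Both fell in WT, and for both the Tet2KO_VitD libraries were above the WT_VitD libraries. In the calcium channel and store list 14 of 18 were positive and 0 reached an unadjusted p under 0.05, with a median of 0.47 (0.86 and 0.17 without Tet2KO_VitD 1 and 2). Itpr1, the calcium release channel of the reticulum, fell in WT (log2 -1.59, adjusted p = 0.0105) and had an interaction of 0.75 (SE 0.365), 0.35 without Tet2KO_VitD 2.

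Genes of modulated smooth muscle, the matrix-making state, leaned to the negative side. Of 18 members, 13 were called higher in WT and 5 in the libraries labelled Tet2KO, with median responses of 2.2 and 1.86. For the interaction 16 of 18 values were negative, 7 of them at an unadjusted p under 0.05. The median was -0.82, with -0.76 when the 1 member with no count in a group was left out, -1.20 without Tet2KO_VitD 1 and -0.55 without Tet2KO_VitD 2. Prg4, a lubricating proteoglycan, stood at 3.49 and 4.46 CPM in WT_vehicle, 184 and 338 in WT_VitD, 6.38 and 10.01 in Tet2KO_vehicle, and 156 and 197 in Tet2KO_VitD. It rose in both genotypes (log2 6.03 and 4.42, adjusted p = 0.00082 and 0.00421), with an interaction of -1.61 (SE 0.475). Timp1, an inhibitor of matrix metalloproteinases, rose in both (log2 4.91 and 3.40, adjusted p = 0.00131 and 0.0114), with an interaction of -1.51 (SE 0.462), and -0.95 without WT_VitD 2. Both Tet2KO_VitD libraries of Timp1, at 248 and 166 CPM, were below the WT_VitD libraries at 326 and 639. Timp4, another inhibitor of the family, had the opposite sign. It stood at 20.6 and 15.8 CPM in WT_vehicle, 27.4 and 20.8 in WT_VitD, 13.1 and 21.3 in Tet2KO_vehicle, and 74.5 and 46.4 in Tet2KO_VitD, with an interaction of 1.41 (SE 0.440). Lum, a collagen-binding proteoglycan, had -0.97 (SE 0.368).

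In the osteochondrogenic list 9 of 15 tested members were called higher in WT and 1 in the libraries labelled Tet2KO. The median responses were 1.305 and 0.95. For the interaction 12 of 15 values were negative, 2 at an unadjusted p under 0.05, with a median of -0.62, and -0.37 without WT_VitD 2. Spp1, osteopontin, a mineral-binding protein of bone and of activated macrophages (chromosome 5, 104435118 to 104441050, plus strand), stood at 1.25 and 1.6 CPM in WT_vehicle, 610 and 717 in WT_VitD, 5.53 and 4.31 in Tet2KO_vehicle, and 580 and 175 in Tet2KO_VitD. Vehicle libraries labelled Tet2KO were above WT_vehicle, and VitD libraries labelled Tet2KO below WT_VitD. Spp1 rose in WT by a log2 of 8.85 (adjusted p = 0.00119) and in the libraries labelled Tet2KO by 6.26 (adjusted p = 0.00583). Its interaction was -2.59 (SE 0.730). Without Tet2KO_VitD 1 it was -3.74 and was called (adjusted p = 0.0464), and without Tet2KO_VitD 2 it was -1.97.

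Tnfrsf11b, osteoprotegerin, a decoy receptor that restrains osteoclasts, stood at 20.1 and 20.8 CPM in WT_vehicle, 69.3 and 70.8 in WT_VitD, 24.4 and 18.7 in Tet2KO_vehicle, and 30.8 and 43.0 in Tet2KO_VitD. The vehicle groups overlapped and the VitD groups did not. It rose in WT (log2 1.78, adjusted p = 0.0039) and differed by 0.78 in the libraries labelled Tet2KO (adjusted p = 0.195), with an interaction of -1.002 (SE 0.298). Mmp13, the collagenase of hypertrophic cartilage, had -2.28 (SE 1.05) on 1 to 111 counts per library, -4.25 without WT_vehicle 2 and -1.51 without WT_vehicle 1. Runx2, the master factor of bone formation, stood at 3.86 and 1.89 CPM in WT_vehicle, 3.83 and 5.20 in WT_VitD, 3.44 and 3.24 in Tet2KO_vehicle, and 3.29 and 4.62 in Tet2KO_VitD, so that VitD and vehicle overlapped in each genotype, and its interaction was -0.41 (SE 0.592), from -1.01 without WT_vehicle 1 to 0.019 without WT_vehicle 2. Vdr, the vitamin D receptor, rose in WT (log2 2.55, adjusted p = 0.00947) and differed by 2.10 in the libraries labelled Tet2KO (adjusted p = 0.0880), with an interaction of -0.45 (SE 0.561), from -0.74 to -0.14 without WT_VitD 1 and 2. In the vitamin D response list 8 of 14 members were tested, with a median of 0.35, 0.59 without the 1 member that had no count in a group, -0.20 and -0.17 without Tet2KO_VitD 1 and 2, and -0.11 to 0.57 without any one of the others. Of these 8, 1 in each direction had an unadjusted p under 0.05. The calcification inhibitor list had 1 of 9 members, Tnfrsf11b, at an unadjusted p under 0.05. Its median of 0.05 became -0.83 without Tet2KO_VitD 1, -0.08 without WT_VitD 2 and between 0.00052 and 0.16 without any one of the others.

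Genes of cell division were negative in 18 of 18 members, with a median of -0.78 (-1.33 and -0.33 without WT_vehicle 1 and 2, -0.39 without WT_VitD 2, -1.20 without Tet2KO_VitD 1) and 2 at an unadjusted p under 0.05. In WT 16 were called higher, and in the libraries labelled Tet2KO 0, with median responses of 2.36 and 1.62. Mcm2, of the replication helicase, stood at 6.29 and 5.55 CPM in WT_vehicle, 14.1 and 18.1 in WT_VitD, 8.84 and 8.06 in Tet2KO_vehicle, and 13.2 and 11.7 in Tet2KO_VitD, with an interaction of -0.89 (SE 0.332). Plk1, a mitotic kinase, had -1.17 (SE 0.601), and -0.78 without WT_vehicle 2. The lists of collagens and of elastic fibre genes had medians of -0.33 and -0.34, with 1 of 18 and 2 of 17 members at an unadjusted p under 0.05. The collagen median was -0.07 without WT_VitD 2, -0.14 without Tet2KO_VitD 1 and -0.69 without Tet2KO_VitD 2, and the elastic fibre median -0.57 without WT_VitD 1 or Tet2KO_VitD 2. Fbln2, an elastic fibre protein, stood at 228 and 257 CPM in WT_vehicle against 417 and 426 in Tet2KO_vehicle, with an interaction of -1.09 (SE 0.355).

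Enzymes that write and remove DNA methylation showed no common direction. The TET and DNA methylation list had a median of 0.01 (-0.10 to 0.10 without Tet2KO_VitD 2 and 1), with 8 of 15 members positive and 1 at an unadjusted p under 0.05. That member was Dnmt3b, a de novo methyltransferase, with 5.23 and 4.57 CPM in WT_vehicle, 2.25 and 2.43 in WT_VitD, 3.38 and 2.46 in Tet2KO_vehicle and 2.54 and 4.18 in Tet2KO_VitD, and an interaction of 1.28 (SE 0.536). Circadian clock genes, which vary with the hour of collection, were positive in 13 of 15 members, with a median of 0.70 (0.43 without WT_vehicle 1) and 3 at an unadjusted p under 0.05. Per2, a repressor of the clock, stood at 146 and 101 CPM in WT_vehicle, 39.8 and 30.4 in WT_VitD, 39.3 and 113 in Tet2KO_vehicle, and 56.9 and 101 in Tet2KO_VitD. Its interaction was 1.87 (SE 0.657), and 2.83 without Tet2KO_vehicle 2. That of Per3, another clock repressor, was 1.22 (SE 0.470), and 0.73 and 0.79 without WT_vehicle 1 and Tet2KO_VitD 2. The 2 Tet2KO_vehicle libraries of Per2 lay far apart, one near WT_VitD and one among WT_vehicle. The part of collection time was not tested.

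Markers of tissues beside the aorta gave the largest medians of the 34 lists and rested on few libraries. Nerve and Schwann cell genes had a median of 3.67, with 6 of 12 at an unadjusted p under 0.05, 1.91 without WT_vehicle 2 and 1.09 without Tet2KO_VitD 2. Dbh, the enzyme that makes noradrenaline, stood at 2.68 and 35.6 CPM in WT_vehicle, 1.98 and 0.283 in WT_VitD, 0.675 and 2.29 in Tet2KO_vehicle, and 1.05 and 15.7 in Tet2KO_VitD, so that WT_vehicle 2 and Tet2KO_VitD 2 were high. Th, the enzyme that starts noradrenaline synthesis, was at 25.4 and 6.91 CPM in those libraries and at most 1.98 elsewhere. Npy, a peptide of sympathetic nerves, was at 17.3 and 9.73 CPM there and at most 2.84 elsewhere. Their interactions, 6.60 (SE 2.08), 5.79 (SE 1.91) and 5.02 (SE 1.52), did not stay under an unadjusted p of 0.05 when each library was left out. Without WT_vehicle 2 they were 3.76, 2.66 and 3.15, and without Tet2KO_VitD 2 those of Dbh and Th were 3.61 and 3.52. That of Npy was 7.66 without Tet2KO_vehicle 2.

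Skeletal muscle genes had a median of -2.66 (-1.60 without WT_VitD 2), with 8 of 10 at an unadjusted p under 0.05. Their summed level was 126 and 532 CPM in WT_VitD and 16.7 to 39.0 CPM in the other 6 libraries. Actn3, the fast-fibre actinin, stood at 8.86 and 36.4 CPM in WT_VitD and 1.72 to 2.29 elsewhere, with an interaction of -3.42 (SE 0.841), and -2.06 without WT_VitD 2. Acta1, skeletal actin, and Atp2a1, the calcium pump of fast fibres, had -2.44 (SE 0.642) and -5.16 (SE 1.52), and the latter was -2.39 without WT_VitD 2. Mesothelial genes had a median of -2.16 (-1.41 without WT_VitD 2 and -1.23 without Tet2KO_vehicle 2) with 5 of 8 at an unadjusted p under 0.05. Msln and Upk3b, both of the mesothelial lining, stood at 30.9 and 76.4 and at 39.2 and 67.5 CPM in WT_VitD, with interactions of -3.10 (SE 0.978) and -2.35 (SE 0.724), and 1 Tet2KO_vehicle library also stood high, at 26.9 and 54.3 CPM. Without that library the interactions were -1.36 and -1.10. The part of dissected neighbouring tissue in these values was not tested.

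The medians of the endothelial, lipogenesis, brown fat, white adipocyte and heart muscle lists changed sign with the Tet2KO_VitD library that was left out. Those of lipogenesis, heart muscle and both fat lists also changed sign without a WT_vehicle library. White adipocytes had a median of -0.22, 0.18 without Tet2KO_VitD 1 and -1.02 without Tet2KO_VitD 2. Without WT_vehicle 1 and 2 their median was 0.06 and -0.57, and without WT_VitD 1 and 2 it was -0.40 and -0.08. Heart muscle had 0.39, 1.15 without Tet2KO_VitD 1 and -1.04 without Tet2KO_VitD 2. It had 1.93 without Tet2KO_vehicle 2 and -0.95 without WT_vehicle 2. The endothelium list had a median of -0.31, -1.14 without Tet2KO_VitD 1 and 0.19 without Tet2KO_VitD 2, and Cdh5, the endothelial cadherin, stood at 388 and 108 CPM in the 2 Tet2KO_VitD libraries. Lipogenesis genes had 0.46, 1.26 and -0.58 in the same order, 1.085 and -0.26 without WT_vehicle 1 and 2, and 0.92 without Tet2KO_vehicle 2. Fasn, fatty acid synthase, stood at 1069 and 4562 CPM in WT_vehicle, 155 and 141 in WT_VitD, 2481 and 3886 in Tet2KO_vehicle, and 112 and 3344 in Tet2KO_VitD. Its interaction was 3.37 (SE 1.65) 1.97 without WT_vehicle 2 and -0.58 without Tet2KO_VitD 2. Dio2, which activates thyroid hormone in brown fat and elsewhere, had -1.58 (SE 0.478), and -1.01 without WT_VitD 2. The brown fat list had a median of -0.34, 0.29 without Tet2KO_VitD 1 and -1.71 without Tet2KO_VitD 2. Its median was 0.07 and -0.96 without WT_vehicle 1 and 2, and -0.67 and -0.14 without WT_VitD 2 and Tet2KO_vehicle 2. Fibroblast genes had a median of -0.77, with 5 of 14 negative and 1 positive at an unadjusted p under 0.05, and -0.49 and -0.51 without WT_VitD 2 and Tet2KO_VitD 2. The B cell list had -1.13, with 1 of 9 at an unadjusted p under 0.05 (-0.37 without WT_VitD 2 and -0.49 without Tet2KO_vehicle 2). The remaining lists (oxidative stress, p53 and senescence, glycolysis, heat shock, immediate early genes, T cells, sex-linked genes) had medians from -0.30 to 0.07, each with at most 2 members at an unadjusted p under 0.05. All had at least 1 left-out library that moved the median by over 1.5 times, the furthest being T cells (-2.13 without WT_vehicle 1) and heat shock genes (0.71 without Tet2KO_vehicle 2).

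**Figure D4:**
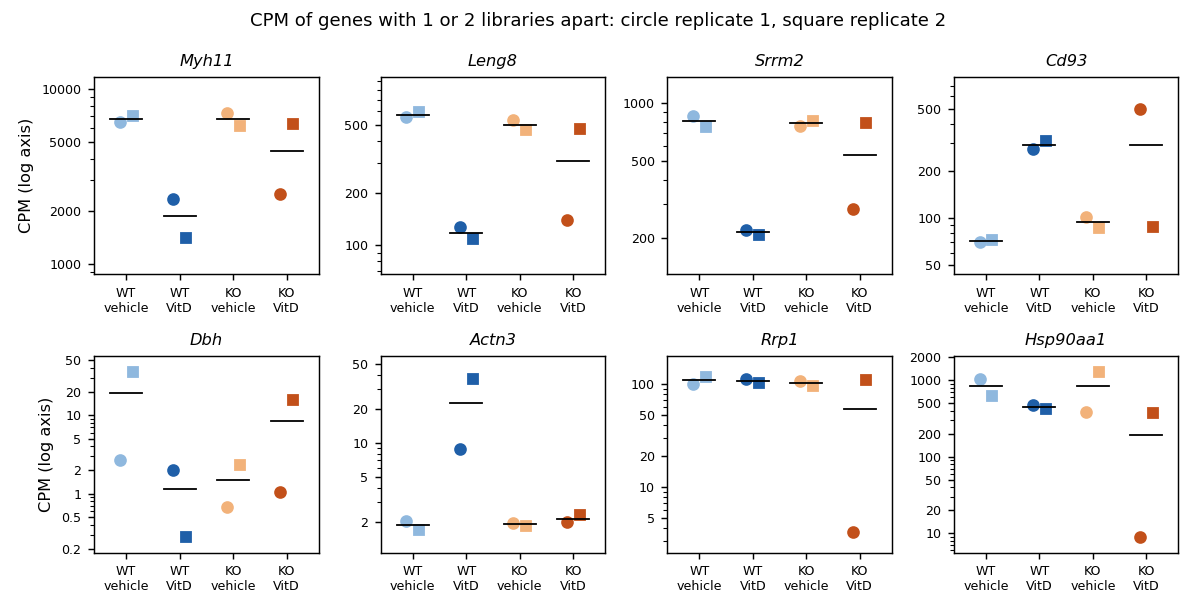
CPM on a log axis in each library for 8 genes, with a circle for replicate 1, a square for replicate 2 and a line at the mean of 2 libraries; KO stands for the libraries labelled Tet2KO. In Myh11, Leng8, Srrm2 and Cd93 Tet2KO_VitD 1 lies near or beyond WT VitD and Tet2KO_VitD 2 near the vehicle libraries. In Dbh WT_vehicle 2 and Tet2KO_VitD 2 are high, in Actn3 both WT VitD libraries are high, and in Rrp1 and Hsp90aa1 Tet2KO_VitD 1 alone is low.

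The calls of the interaction depended on which Tet2KO_VitD library was used. With Tet2KO_VitD 1 left out, 22 genes were called (15 positive, 7 negative), and with Tet2KO_VitD 2 left out, 7 were called, all negative. The 2 sets shared 0 genes, and leaving out any of the other 6 libraries called 0. In these fits the lone library of its group is assumed to vary like the others. The genes called without Tet2KO_VitD 1, here named from their values in that fit, included Itga10, a collagen receptor of cartilage (2.65), Adam33, a smooth muscle and fibroblast protease (2.74), Notch3, the receptor that maintains arterial smooth muscle (2.003), and the splicing-related Leng8 (2.17) and Srrm2 (1.89). Leng8 stood at 554 and 593 CPM in WT_vehicle, 126 and 108 in WT_VitD, 537 and 465 in Tet2KO_vehicle, and 139 and 474 in Tet2KO_VitD. All 3 libraries of the higher number range were low. The negative calls included Slco2a1, a prostaglandin transporter (-2.21), the endothelial Cd93 (-2.17) and Selp (-2.15), and Bmp4, a bone morphogenetic protein (-1.87). Cd93 stood at 70.6 and 72.1, 275 and 310.0, 102 and 86.7, and 496 and 88.5 CPM in WT_vehicle, WT_VitD, Tet2KO_vehicle and Tet2KO_VitD, and its value over all 8 libraries was -0.41 (SE 0.838). The parts of number range and VitD in these calls cannot be told apart.

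**Figure D5:**
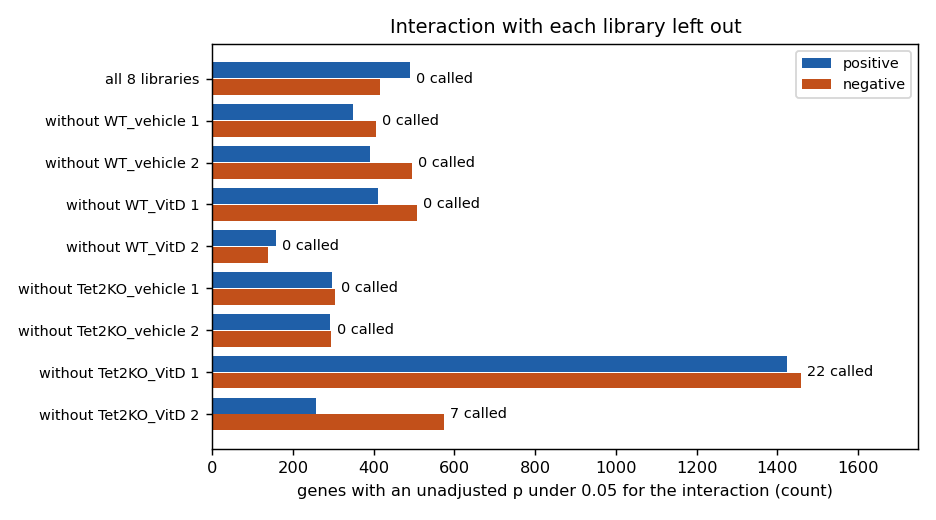
Number of genes at an unadjusted p under 0.05 for the interaction, positive and negative, in the fit of all 8 libraries and in fits that each left out 1 library, with the number called at an adjusted p under 0.05 beside each pair of bars. Without Tet2KO_VitD 1 the counts were 1424 and 1460, and without WT_VitD 2 they were 157 and 137.

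The numbers at an unadjusted p under 0.05 followed the left-out library too, from 294 without WT_VitD 2 to 2884 without Tet2KO_VitD 1, against 905 with all 8. Of the genes with large interaction values, Lars2, a mitochondrial leucyl-tRNA synthetase, stood at 3832 and 1053 CPM in WT_VitD and 107 to 218 in the other 6 libraries, with -3.70 (SE 0.740) and -2.53 without WT_VitD 1. The predicted gene Gm23935 was high in the same 2 libraries, at 7470 and 1776 CPM against 58.8 to 243 elsewhere. Whether the Lars2 and Gm23935 reads share a source was not tested. The mitochondrial tRNA gene mt-Tp stood at 59.8 and 55.5 CPM in WT_vehicle, 112 and 106 in WT_VitD, 95.0 and 94.4 in Tet2KO_vehicle, and 85.9 and 92.2 in Tet2KO_VitD, with -1.01 (SE 0.218). Reads of a tRNA in a poly-A library are few in kind and can come from overlapping transcripts, so its source was not tested.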

How the data were processed

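The authors deposited raw read counts per gene symbol for 8 libraries. Per the labels' protocols these were poly-A enriched, stranded libraries from TRIZOL RNA. Per the submitters' processing notes Trimmomatic 0.39, STAR 2.7.8a, featureCounts 2.0.2 and build mm10 were used. No source used here states the annotation, the strand setting or the treatment of multiply mapped reads, so values of overlapping or near-identical genes are uncertain. Groups came from sample titles. Replicates differed by more than counting noise, so none was a library deposited again. Counts were fitted with edgeR 4.0.16 (R 4.3.3): TMM, genes at 1 CPM or more in 2 libraries, 1 mean per group, 4 residual degrees of freedom, Benjamini-Hochberg adjustment over 15019 genes, threshold 0.05. CPM is TMM-normalised, and SE was derived from the log2 value and the F statistic. Alternatives were other normalisations and filters, DESeq2 1.42.0, limma 3.58.1 voom, a replicate block, the number range as covariate, removal of a transcript length trend, and leaving out each library. In a test on simulated data with 2 libraries per group, the share of false calls for the interaction was above the nominal rate of the threshold. edgeR's interaction calls, such as those with a library left out, may therefore hold more false ones than the adjusted p states. Calls of the WT and labelled Tet2KO responses were not simulated.

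The genes, families and 34 lists were chosen with earlier results of these data known. The genes named are Tet2, Myh11, Acta2, Spp1 and Runx2, the 12 genes of smallest p in each direction (predicted symbols left out), up to 4 members of smallest p per list, and up to 12 that kept sign and p in every fit. Others were chosen after their values were seen: Vdr, Fasn, Cdh5, Plk1, the gene families, Lars2's companion Gm23935 and the genes called with a library left out.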

Additional observations from a re-analysis of the deposited data

Results flagged for a closer look

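Among the 81 genes examined by name, 11 had VitD libraries wholly above vehicle in one genotype and wholly below it in the other. The interaction, which tests that difference, passed the adjusted threshold for none of them in edgeR and for 4 of them in DESeq2 (Slc24a4, adjusted p = 0.000821, Slc6a17, 0.00155, Serpina3k, 0.00433, and Ank2, 0.0311). Over all genes 1.58% had such opposite responses. Many of the 81 genes were named for a small interaction p or after their values were seen. Such picking favours opposite responses, so the count among them cannot be set against the share over all genes. Slc24a4 (log2 3.07), Ank2 (1.27), Slc6a17 (4.09), Arrdc2 (1.21) and Serpina3k (6.05) were lower with VitD in WT and higher in the libraries labelled Tet2KO. Treml4 (-4.22), H2-Aa (-1.21), H2-Eb1 (-1.13), Cd74 (-1.16), H2-Ab1 (-1.04) and mt-Tp (-1.01) were higher in WT and lower in the libraries labelled Tet2KO. With 2 libraries per group, no library could be tested as an outlier within its group.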

How the results depend on the processing

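The number of genes called for the interaction was 0 with TMM, DESeq2 size factors, upper quartile scaling, filterByExpr, limma voom and removal of the length trend. It was 13 with the DESeq2 Wald test, 403 with no filter (28001 genes tested), 7 with the number range as a covariate, which rests on Tet2KO_VitD 1 alone, and 0 to 22 with each library left out. The WT response had 3227 calls, 58 with the range covariate and 133 to 4945 with each library left out. The libraries labelled Tet2KO had 32 calls, 435 with DESeq2, 9 with voom, 1225 with no filter, 19 with the range covariate, 18 with the length trend removed and 0 to 1992 with each library left out. The causes were not tested.

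Equal replicate numbers do not pair the libraries: the correlations of same-numbered libraries' deviations ran from -0.133 to 0.155. With the number as a replicate block, 0 genes were called for the interaction (715 at an unadjusted p under 0.05), 2436 for WT and 23 for the libraries labelled Tet2KO.

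Of 81 genes, 74 kept the sign of the interaction under 17 settings. The other 7 turned in 12 of 1377 values: Acta2 (-0.040), Cdh5 (0.072), Fasn (-0.58), Cd93 (0.36) and Selp (0.17) with the range covariate and, with the same values, without Tet2KO_VitD 2, Runx2 (0.019) without WT_vehicle 2, and Rrp1 (0.11) without Tet2KO_VitD 1. Over the left-out libraries these genes ranged from -0.040 to 0.565 for Acta2, -1.81 to 0.072 for Cdh5, -0.58 to 4.28 for Fasn, -2.17 to 0.36 for Cd93, -2.15 to 0.17 for Selp, -1.01 to 0.019 for Runx2 and -4.78 to 0.11 for Rrp1. With 2 libraries per group and a median SE of 0.374, small interactions were not detectable, and genes of few counts had wide errors.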

Other observations

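A set of genes was low in a single library. In Tet2KO_VitD 1, 11 genes lay at least 8 times below every other library, against 3 genes in WT_vehicle 2, 1 in Tet2KO_vehicle 2 and 0 in the other 5 (genes at 5 CPM or more in all the others). They were chosen after seeing the data. Of the 11, 7 carry ribosomal RNA processing names: Rrp1, Rrp1b, Rrp7a, Rrp8, Rrp9, Rrp12 and Rrp15. The others are the mitochondrial ribosomal RNAs mt-Rnr1 and mt-Rnr2, the ribosomal protein gene Rpl12, and Hsp90aa1, a heat shock chaperone. Rrp1 stood at 3.66 CPM in Tet2KO_VitD 1 and 97.7 to 118 elsewhere, and Rrp12 at 0.558 against 10.6 to 15.6. Rpl12 stood at 18.5 CPM against 269 to 884, Hsp90aa1 at 8.93 against 378 to 1296, and mt-Rnr2 at 6.14 against 532 to 1391. Rrp1b stood at 1.43 CPM against 12.5 to 24.7. The 7 genes called for the interaction without Tet2KO_VitD 2 (Rpl12, Rrp1, Rrp7a, Rrp8, Rrp12, Rrp15 and mt-Rnr1) all belong to these 11. In WT_vehicle 2 the low genes were Gbp2b (0.229 CPM against 14.6 to 35.3), Rpl34-ps1 and Gm3608, and in Tet2KO_vehicle 2 Eno1b (0.559 against 27.4 to 115).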
